A study of Mus musculus with 30 samples.

Results

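The lymph node was one of 8 organs in a pilot single-cell RNA sequencing experiment on collagen-induced arthritis (CIA), a mouse model of rheumatoid arthritis. All lymph node libraries of that pilot were taken, which gave 9 of its 30 libraries and 2505 of its 8282 cell barcodes. They came from 7 male DBA1/J mice, 8 to 12 weeks of age, an inbred strain in which CIA is commonly induced. Healthy animals numbered 4 (H3, H4, H6 and H7; arthritis score 0) and contributed 1137 barcodes. The 3 CIA mice (S1 and S2, both with a score of 8, and S7, with a score of 3) contributed 1368. CIA mice had received bovine collagen II in Complete Freund's Adjuvant at the base of the tail and a later booster in incomplete adjuvant. Healthy mice had received phosphate-buffered saline by the same route. The sources used here name no group with adjuvant alone, so effects of adjuvant and of arthritis cannot be told apart. Organs were cryopreserved and thawed, the lymph node cells were treated with red blood cell lysis buffer, and messenger RNA was captured with Seq-Well, in which single cells share microwells with barcoded oligo-dT beads.

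Each library held 153 to 454 barcodes and a total of 1064463 to 3319362 units, with a median of 6235 to 10846 units per barcode. A unit is a unique molecular identifier as it stands in the deposited table after smoothing over neighbouring cells (k = 12), so units are not raw counts, no counting interval was computed, and a gene at 0 is only listed at 0. H4 and S7 each had a pair of libraries with the title suffixes 2CIA and CIA, which the labels do not explain. H3, S1 and S2 had the suffix 2CIA and H6 and H7 the suffix CIA, so the suffix was partly aligned with the state. Units were summed per mouse, which is the replicate throughout, and scaled to a total of 1000000 units (UPM). Levels of single libraries were scaled among the 9 libraries, separately from those of mice, so a mouse with 1 library has slightly different values on these scales. The 2CIA library of H4 stood apart with 4399 genes above 0, against 5714 to 8770 in the other libraries. The CIA library of H4 and the library of H7 stood apart by globin transcripts. The suffix and these libraries are taken up beside the results they touch.

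Lymph nodes collect antigen from the tissues they drain and bring it together with naive T and B lymphocytes, which enter from the blood, survey the node and leave again unless they are activated. Type I and type II interferons are cytokines that signal through JAK kinases and STAT transcription factors. Type I interferon assembles a transcription factor complex with IRF9 that binds a promoter element, the interferon-stimulated response element, and switches on antiviral genes known together as interferon-stimulated genes. Many of these genes encode sensors of foreign nucleic acid, proteins that block viral translation, and the factors of the pathway itself.

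The markers of the tissue were checked first. All 10 T cell markers (Cd3d, Cd3e, Cd3g, Lck, Lat, Cd4, Cd8a, Cd8b1, Trbc2 and Trac) were present, with summed levels of 3389, 3367, 4768 and 2494 UPM in H3, H4, H6 and H7 and 2390.3, 2753 and 3287 UPM in S1, S2 and S7. All 8 B cell markers, among them Cd79a, Cd79b, Ms4a1, Cd22, Fcmr, Pax5 and Blk, were also present, at 591, 895, 893 and 1706 UPM in the healthy mice and 1412, 873 and 1270.3 UPM in the CIA mice. The 3 stromal markers (Col1a1, Col3a1 and Pdpn) and the 3 thymocyte markers (Dntt, Rag1 and Ptcra) were listed at 0 in all mice. The same held for Csf1r, C1qa, C1qb and Cd14 of the 5 monocyte and macrophage markers, which left Lyz2 at 217, 162, 32.3 and 456 UPM in the healthy mice and 393, 53.9 and 79.99 UPM in the CIA mice.

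The comparison asked which genes and programmes differed between the lymph nodes of CIA and healthy mice. A single gene passed the test, Ifi27l2a, which rose 5.86-fold in CIA. Ifi27l2a encodes a small hydrophobic protein induced by interferon. Of 52 type I interferon-stimulated genes above 0 in any mouse, taken with no filter on low values, 48 had higher values in CIA. Of 26 quiescence genes of resting lymphocytes, such as Klf2 and Bcl2, 20 had lower values, as did 25 of 27 T cell identity genes. Apart from Ifi27l2a none of these passed after adjustment. Genes were tested with limma on log2(UPM + 10), which understates the change of low genes, with Benjamini-Hochberg adjustment over 5060 genes that averaged at least 25 UPM. Of these, 1 was called at an adjusted p under 0.05, or 0.0198% of the genes tested. The values of all CIA mice lay above those of all healthy mice for 198 genes (3.91%) and below them for 114 genes (2.25%). Before adjustment, 109 genes (2.15%) had a p under 0.05 and were higher in CIA, and 106 genes (2.09%) were lower. In all, 3008 genes were higher and 2052 lower, with a median log2 difference of 0.09. A sum over barcodes cannot tell fewer cells of a type from less RNA per cell.

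Promoters of the interferon genes were searched for a short sequence. The lists hold genes known to respond to interferon, so the share with this sequence describes the lists. It says nothing of the difference between states. RefSeq promoter windows from 250 bases before to 50 bases after the annotated start (build GRCm38.p6) were searched on both strands for GAAANNGAA, the core of the interferon-stimulated response element, with overlapping matches counted. It was found for 20 of the 38 interferon-stimulated genes with a window in the table (52.6%) and for 12 of 14 interferon gamma-induced genes (85.7%), against 9.76% of all 27025 genes with a window and 9.46% of the genes tested here. Of the interferon ligands, receptors and signalling genes 1 of 16 held it (6.25%), and of the quiescence genes 2 of 24 (8.33%). Windows of 4 genes are shown in part. Ifit1 and Oas1a were listed at 0 in all healthy nodes and above 0 in all 3 CIA nodes, and for Ifit3 and Isg15 every CIA node lay above every healthy node. Capitals mark the matches, which read TTCNNTTTC when the element lies on the other strand. Each is printed on the strand of its gene, at chr19:34640769-34640888 (plus strand) for Ifit1, chr19:34583369-34583528 (plus strand) for Ifit3, chr4:156200819-156200918 (minus strand) for Isg15 and chr5:120907526-120907625 (minus strand) for Oas1a.
Ifit1: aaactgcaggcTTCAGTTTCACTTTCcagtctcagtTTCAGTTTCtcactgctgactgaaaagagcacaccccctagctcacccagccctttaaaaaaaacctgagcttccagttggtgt
Ifit3: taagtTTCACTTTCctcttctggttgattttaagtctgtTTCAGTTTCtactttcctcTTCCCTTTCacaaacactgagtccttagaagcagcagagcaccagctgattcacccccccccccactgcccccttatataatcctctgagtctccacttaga
Isg15: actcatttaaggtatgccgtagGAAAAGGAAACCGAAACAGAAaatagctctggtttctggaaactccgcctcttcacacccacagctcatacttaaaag
Oas1a: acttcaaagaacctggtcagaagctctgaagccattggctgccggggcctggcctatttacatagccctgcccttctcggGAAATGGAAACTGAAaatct
A match describes the letters and is not a measured binding site. The windows of Irf7, Irf9 and Xaf1 did not hold these letters, and no window of Ifi27l2a was in the table.

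Ifi27l2a (chr12:103433873-103443680 in GRCm38.p6) was listed at 133, 189, 127 and 353 UPM in H3, H4, H6 and H7. In S1, S2 and S7 it was at 1445, 951 and 1125 UPM. The lowest CIA mouse thus lay well above the highest healthy mouse, H7. The means were 200.3 ± 105 UPM (SD, n = 4) and 1174 ± 250.3 UPM (SD, n = 3). On the log2 scale they differed by 2.59 with an SE of 0.34, and limma's adjusted p was 0.00554. The call was lost without H6 (adjusted p = 0.0597), S1 (0.0517) or S7 (0.063), and without a mean-variance trend in limma (0.364), although in each case the log2 difference stayed between 2.42 and 2.61.

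In the smoothed values the difference in Ifi27l2a was seen over most barcodes of each node. Between 62.2% and 84.3% of the barcodes of a healthy library had a value above 0, against 97.4% to 100% of the barcodes of a CIA library. The 25th percentile over barcodes was at least 660 UPM in each CIA library, whereas the 75th percentile reached 425 UPM in H7, the highest of the healthy libraries. Smoothing spreads a transcript over neighbouring cells, so these percentages are not shares of expressing cells. The 2505 barcodes held 1540 distinct profiles, so the number of cells behind the difference cannot be told. Within the suffix CIA the libraries of H4, H6 and H7 stood at 178, 133 and 368 UPM and that of S7 at 1215 UPM. The 2CIA libraries of H4 and S7 differed from their CIA libraries by -0.22 and -0.24 on the log2 scale. With the 2CIA libraries only (H3 and H4 against S1, S2 and S7), the log2 difference was 2.89 (limma adjusted p = 0.00217).

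**Figure D1:**
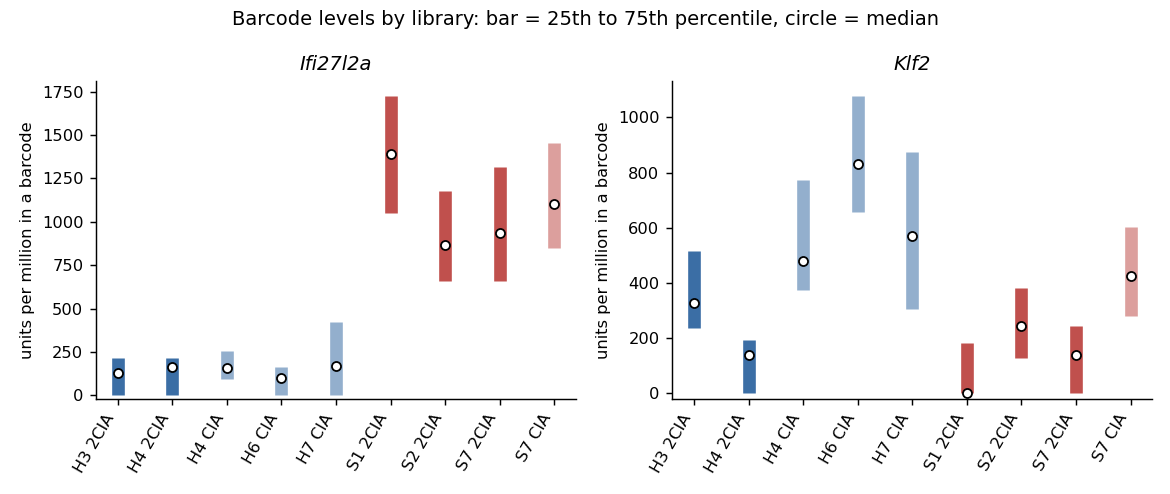
Levels of Ifi27l2a and Klf2 over the barcodes of each lymph node library, in UPM. Bars span the 25th to 75th percentile and circles mark the median, with healthy mice in blue, CIA mice in red and the suffix CIA in paler colour. The bars of Ifi27l2a in CIA libraries begin at 660 UPM or above and those in healthy libraries end at 425 UPM or below, while the bars of Klf2 follow the suffix in H4 and S7.

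Plac8, a cysteine-rich protein of myeloid cells and lymphocytes, had the next smallest p. It stood at 106, 118, 67.5 and 215 UPM in the healthy mice. In the CIA mice it stood at 619, 329 and 403 UPM, so the groups did not overlap. The ratio of means was 3.55 and the log2 difference 1.81 (SE 0.37; adjusted p = 0.425 in limma). This missed the threshold over all barcodes but passed it when every gene was tested without a filter on low values. Plac8 is also on the list of monocyte and macrophage genes, of which 7 were tested and 5 had higher values in CIA. Of the 5 markers of these cells, Csf1r, C1qa, C1qb and Cd14 were listed at 0 in all mice, while Lyz2 was above 0 in every mouse, with the levels given above. The part of such cells in the difference was not tested.

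Irf7 and Irf9, factors of the interferon pathway, had higher levels in CIA, though neither passed after adjustment. Irf7, the factor that amplifies type I interferon production, was at 15.3, 16.4, 0 and 50.5 UPM in the healthy mice and 68.1, 88.3 and 96.1 UPM in the CIA mice (log2 difference 1.89, SE 0.55). Irf9, the DNA-binding part of the type I interferon complex, was at 60.1, 0, 0 and 27.4 UPM and 119, 100.5 and 63.5 UPM (log2 2.17, SE 0.64). For both factors every CIA mouse lay above every healthy mouse, while the limma adjusted p was 0.962 for each.

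Among the effectors, Xaf1, a pro-apoptotic protein induced by interferon, was at 32.6, 20.9, 30.8 and 30.3 UPM in the healthy mice. In the CIA mice it was at 78.9, 104 and 139 UPM, a ratio of 3.75 (log2 1.58, SE 0.36; limma adjusted p = 0.714). Isg15, a ubiquitin-like modifier, was at 13.5, 0, 29.4 and 34.96 UPM and 81.5, 61.6 and 76.6 UPM. Both genes showed separate groups. Ifit3, which binds foreign RNA together with Ifit1, was listed at 0 in H3, H4 and H6 and at 16.01 UPM in H7, against 66.5, 83.5 and 42.9 UPM in S1, S2 and S7. Slfn5 (16.9, 51.1, 15.2 and 60.7 UPM against 111, 85.4 and 101 UPM) also did not overlap. Nor did Epsti1 (30.7, 0, 49.9 and 34.96 UPM against 89.3, 93.2 and 189 UPM) and Ifi214 (31.9, 60.7, 35.2 and 83.4 against 130.4, 158 and 159.8), interferon-induced genes outside the list. Ifi214, Ifi209 and Ifi203 belong to a cluster of similar genes whose reads could have been split between copies, as could those of Phf11b and Phf11d, and of Ifit3 and Ifit3b. Trim30a, which restrains innate immune signalling, overlapped between the groups because H4 at 100.2 UPM lay above S2 at 96.1 UPM.

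**Figure D2:**
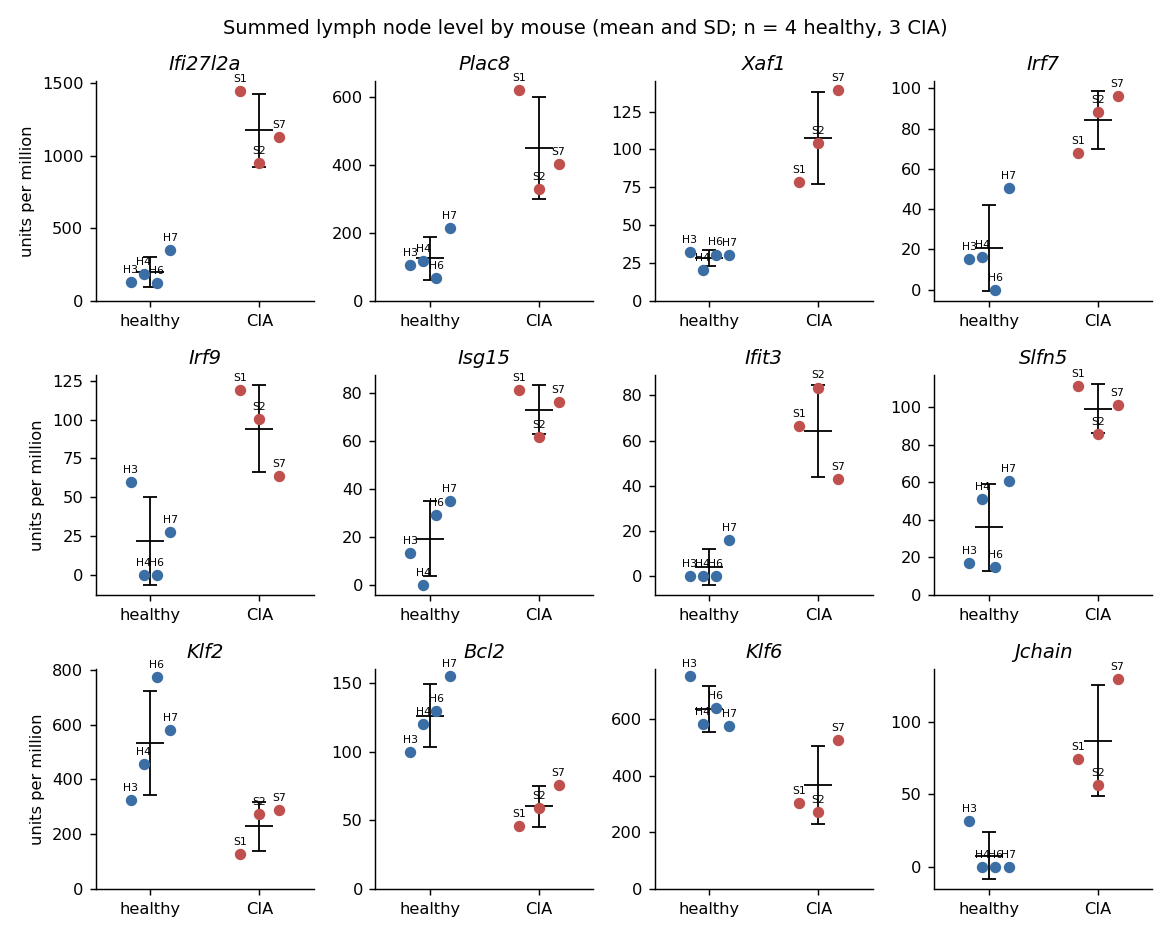
Levels of 12 genes by mouse, in UPM (vertical axes, a panel per gene). Each dot is a mouse (blue healthy, n = 4; red CIA, n = 3) and the bars give the mean ± SD. Ifi27l2a, Plac8 and the 6 interferon genes beside them show 3 CIA mice above 4 healthy mice, and Klf2, Bcl2 and Klf6 show them below.

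Of 53 listed type I interferon-stimulated genes in the table, 25 were tested with limma. Of these, 22 were higher in CIA and 3 lower, with a median log2 difference of 1.01 beside 0.09 over all genes tested. The filter was set on the mean over all mice. Ifit3, Irf7, Irf9, Isg15 and Parp9 passed it through the CIA mice, with a healthy mean under 25 UPM, and Rsad2 passed it through the healthy mice, so their direction was partly fixed by the filter. Of the other 19, 17 were higher, with a median of 0.91. With no filter 48 of 52 members above 0 were higher and 4 lower, with a median of 1.10 beside 0.10 over all genes. Before adjustment 14 had a p under 0.05 in the higher direction and 1, Slfn2, in the lower. Beside Ifi27l2a, Xaf1, Irf7, Irf9, Trim30a, Slfn5, Ifit3 and Isg15, these 14 included Phf11b, Ifi209, Bst2, Ifi203 and Ly6a. The log2 differences of the last 5 lay between 0.91 for Ifi203 and 1.64 for Ly6a. In 12 of the 25 every CIA mouse lay above every healthy mouse, against 3.91% of all genes. Ifit3, Irf7, Irf9 and Isg15, which passed the filter through the CIA mice, were among both the 14 and the 12. With no filter 24 of 52 members lay above in every CIA mouse, against 2.92% of all genes. The summed level of the list was 1592, 1718, 2014 and 2702 UPM in H3, H4, H6 and H7 and 5019, 4223 and 4421 UPM in S1, S2 and S7. H7 was the highest of the healthy mice and S2 the lowest of the CIA mice. The exceptions included Slfn2, which maintains T cell quiescence (171, 101, 238 and 234 UPM against 98.4, 88.8 and 112 UPM), and Rsad2, which encodes the antiviral enzyme viperin and stood at 0, 14.5, 0 and 155 UPM against 25.4, 0 and 10.1 UPM. The healthy level of Rsad2 rested on H7.

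The direction was the same within the suffix 2CIA, in which H3 and H4 were compared with S1, S2 and S7. All 25 members tested there were higher in CIA, with a median of 1.81 beside 0.19 over all genes. The 2CIA library of H4, which stood apart by its genes above 0, had a summed level of the list of 1009 UPM. This was the lowest of the 9 libraries, against 1689 UPM in H3 and 1866 UPM in the CIA library of H4. The part of this library in the median was not tested. In a fit over the 9 libraries with the suffix as a term, 26 of 27 were higher, with a median of 1.21. Among the libraries with the suffix CIA, the summed level was 1866, 2104 and 2824 UPM in H4, H6 and H7 and 4458 UPM in S7.

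Another 27 interferon-stimulated genes were above 0 but below 25 UPM on average and were tested gene by gene with a two-sided exact permutation test over the 7 mice. Of these, 11 were higher in CIA at the lowest p that 35 splits allow in this exact permutation test, 0.0286. Over all 6589 such genes 113 had an exact permutation p under 0.05 (1.71%), and the lowest adjusted p was 0.983. Ifit1, Oas1a, Ifih1, Ifit3b, Lgals3bp and Phf11d were listed at 0 in all 4 healthy mice and above 0 in all 3 CIA mice. Ifih1, which senses long double-stranded RNA, reached 19.2, 55.3 and 12.9 UPM in S1, S2 and S7. Ifit1 reached 16.6, 30.1 and 30.9 UPM. Oas1a, which makes the messenger that activates RNase L, reached 14.01, 14.1 and 12.4 UPM. Usp18, the enzyme that removes Isg15 and damps the interferon receptor, was at 9.27 UPM in H7, listed at 0 in the other healthy mice, and at 25.1, 27.7 and 41.4 UPM in the CIA mice. Rtp4, Ifi44, Ifi208 and Parp14 made up the rest of the 11. Tlr7, a receptor for single-stranded RNA, of the signalling list, showed the same pattern, with 23.5, 38.3 and 6.74 UPM against 0. No fold was computed for genes listed at 0.

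Interferon gamma shares part of this programme and induces a family of GTPases. Of 9 tested members of its list 7 were higher, with a median log2 difference of 0.53, and 2 did not overlap in that direction, against 3.91% of all genes. Of the 9, 2 passed the filter through the CIA mice alone, and with no filter 13 of 18 were higher, with a median of 0.32. Gbp6 was one of these (0, 16.4, 28.4 and 0 UPM against 59.96, 42.2 and 48.9 UPM, log2 1.75, SE 0.72). Gbp4 and Gbp9 had a p under 0.05 before adjustment (log2 1.29 and 0.83) and overlapped. Gbp3, at 52.5 ± 15.2 and 51.8 ± 17.3 UPM (SD, n = 4 and 3), and Igtp, at 29.5 ± 8.08 and 33.8 ± 29.5 UPM, differed by less than their spread.

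The ligands, receptors and signalling genes were taken as a list of their own. Ifnb1 was listed at 0 in all mice, and Ifng was listed above 0 in H6 alone, at 13.2 UPM. Of 9 tested ligands, receptors and signalling genes, 4 were higher and 5 lower, with a median of -0.03, and none had a p under 0.05. Ifnar1 was at 86.1, 51.1, 95.4 and 121 UPM in the healthy mice and 65.8, 49.01 and 62.01 UPM in the CIA mice. Ifngr1 (log2 -0.05, SE 0.35) and the kinase Jak1 (log2 -0.03, SE 0.27) differed by less than their error.

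**Figure D3:**
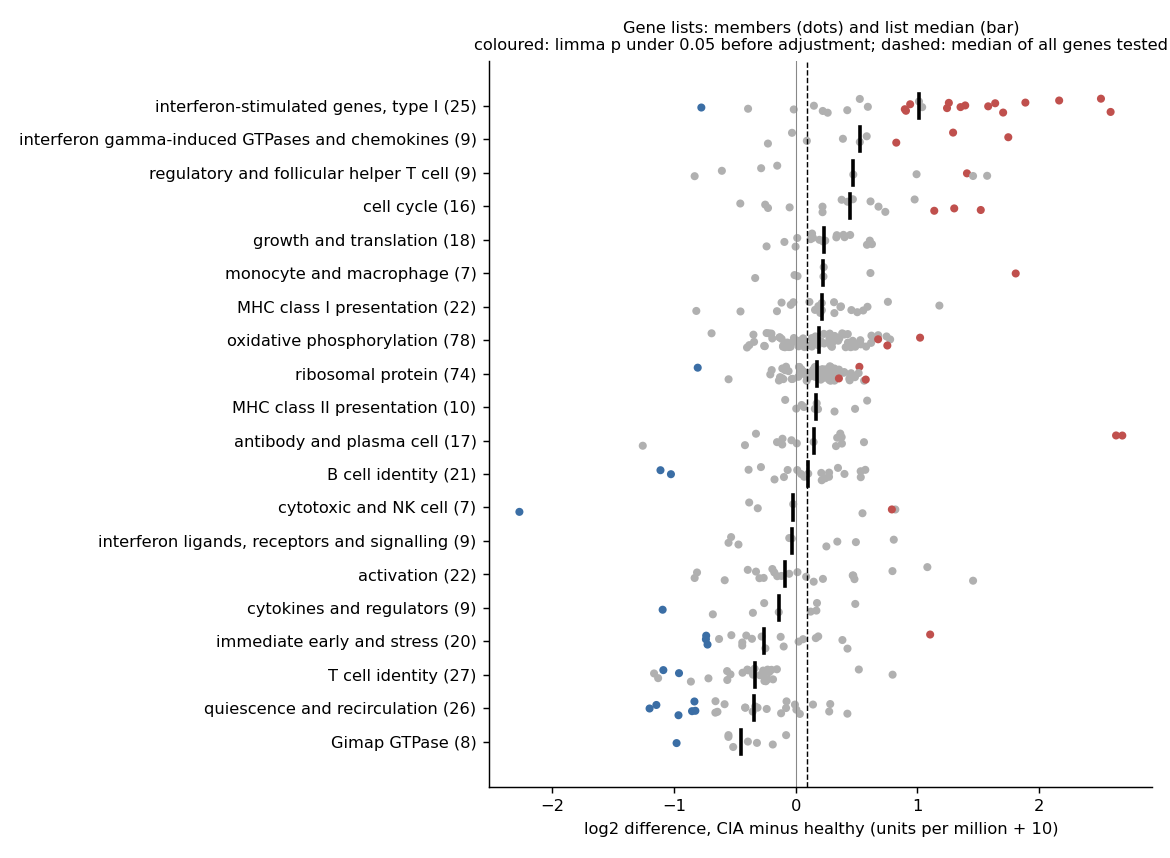
Log2 differences (CIA minus healthy, on the log2(UPM + 10) scale) of the tested members of each gene list. Each dot is a gene, coloured where limma's p before adjustment is under 0.05, the bar is the list median and the dashed line is the median of all 5060 genes, 0.09; erythroid genes and lists with fewer than 5 tested members are left out. Type I interferon-stimulated genes have the highest median, 1.01.

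Quiescence and recirculation genes keep naive and memory lymphocytes small, long-lived and circulating. Of 26 tested members 20 were lower in CIA and 6 higher, with a median of -0.34. Klf2, the factor that drives expression of homing receptors, stood at 326, 456, 772 and 581 UPM in the healthy mice and 126, 273 and 289 UPM in the CIA mice. The groups did not overlap and the log2 difference was -1.20 (SE 0.35; limma adjusted p = 0.962). Bcl2, which blocks apoptosis, was at 99.9, 120.4, 129.6 and 155 UPM and 45.9, 59.2 and 75.5 UPM. Klf6 was at 753, 585, 638 and 575 UPM and 303, 272 and 527 UPM. Lef1, a transcription factor of naive T cells, was at 106, 329, 238 and 125 UPM and 57.03, 68.4 and 111 UPM, with S7 above H3. Klf2, Bcl2, Klf6, Lef1, Dgka and Ccr7 had a p under 0.05 before adjustment, and 3 of the 26 did not overlap between the groups, against 2.25% of all genes. Il7r (log2 0.28, SE 0.30), Foxo1 (0.43, SE 0.38) and Btg1 (0.14, SE 0.26) differed by amounts close to their SE or below it.

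Klf2 differed more between libraries of the same mouse than between states. It stood at 118 UPM in the 2CIA library of H4 and 595 UPM in its CIA library, and at 147 and 477 UPM in the libraries of S7. These pairs differed by -2.24 and -1.64 on the log2 scale. With the 2CIA libraries only (H3 and H4 against S1, S2 and S7) the difference between states was -0.20, and with the suffix as a term it was -0.31. The immediate early gene Jund was similar, with 569, 392, 542 and 503 UPM in the healthy mice and 278, 291 and 315 UPM in the CIA mice, pair differences of -1.65 and -0.82, and a difference of -0.14 within the suffix 2CIA. For Bcl2 the pairs differed by -0.61 and 0.57 and the difference within the suffix was -0.47, and for Klf6 by 0.65 and -0.36 with -1.06 within the suffix. Over the quiescence list 16 of 26 were lower within the suffix 2CIA, with a median of -0.17, and 19 of 26 with the suffix as a term, with a median of -0.26. Across all genes tested, the median absolute difference between the 2 libraries of one mouse was 0.70 in H4 and 0.51 in S7, beside 0.29 between states.

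**Figure D4:**
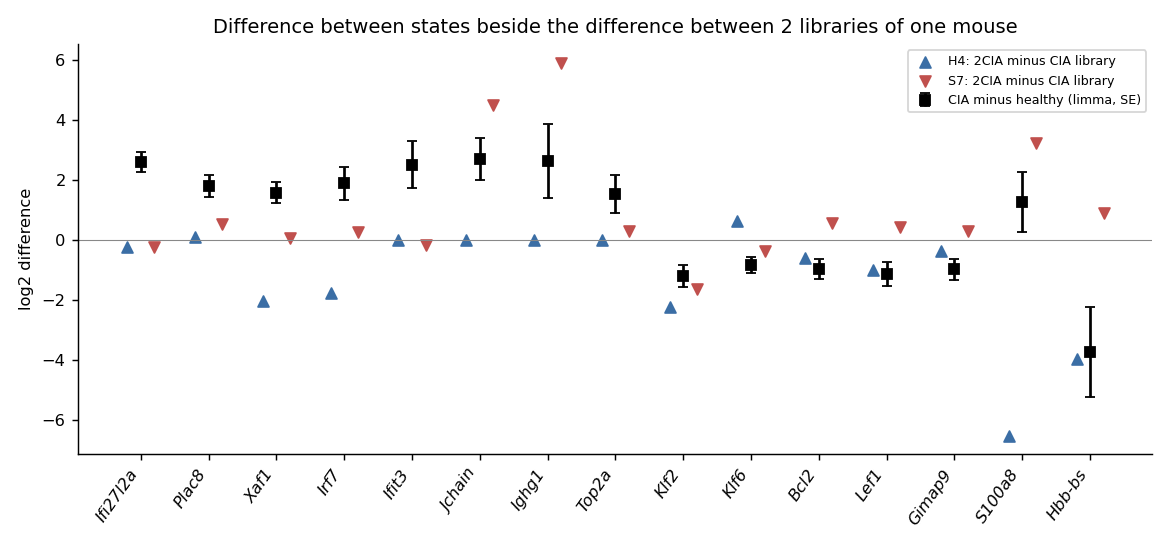
For 15 genes, the log2 difference between CIA and healthy mice with its SE, beside the log2 difference between the 2CIA and CIA libraries of H4 and of S7. Ifi27l2a shows 2.59 between states and at most 0.24 in size between libraries of a mouse, whereas Klf2 shows -1.20 between states and -2.24 and -1.64 between libraries.

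T cell identity genes also had a negative median. Of 27 tested, 25 were lower in CIA with a median of -0.34, and in 5, among them Cd4, Cd3e, Cd2 and Bcl11b, every CIA mouse lay below every healthy mouse, against 2.25% of all genes. Within the suffix 2CIA 17 of 26 were lower, with a median of -0.12, and with the suffix as a term 23 of 27 were lower, with a median of -0.28. Bcl11b, a factor that maintains T cell identity, was at 139, 193, 324 and 151 UPM and 93.5, 78.1 and 111 UPM (log2 -0.96, SE 0.34). Cd4 was at 53.5, 45.5, 67.02 and 41.3 UPM in the healthy mice and 34.9, 0 and 35.2 UPM in the CIA mice. The number without overlap was 1 when every library was its own sample (0.522% of all genes) and 2 without the 2CIA library of H4 (2.08% of all genes). With H4 left out altogether it was 6 (4.96% of all genes), and the cause of these changes was not tested. The 8 Gimap genes, which encode GTPases of lymphocyte survival, were all lower in CIA with a median of -0.45. Of the 7 tested within the suffix 2CIA 4 were lower and 3 higher, with a median of -0.07, and with the suffix as a term 7 of 8 were lower, with a median of -0.29. Gimap9 was the one with a p under 0.05 before adjustment (109, 168, 160.5 and 111 UPM against 61.3, 42.7 and 95.3 UPM). B cell identity genes were higher for 14 of 21, with a median of 0.10 and none at a p under 0.05 in that direction. Within the suffix 2CIA 16 of 20 were higher, with a median of 0.70 beside 0.19 over all genes, and with the suffix as a term 17 of 20, with a median of 0.58 beside 0.15. In each of these fits 3 had a p under 0.05 before adjustment. Fcer2a, the low-affinity IgE receptor CD23 of resting B cells, was at 87.3, 74.2, 147 and 182 UPM in the healthy mice and 49.5, 33.5 and 80.4 UPM in the CIA mice, and Cd55 at 80.5, 159, 91.97 and 229.98 and 45.9, 41.7 and 82.2 UPM; both had a limma p under 0.05 before adjustment. Within the suffix 2CIA their log2 differences were -0.01 and -0.54.

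Each barcode was therefore placed by its marker levels before states were compared. A barcode leaned to B where its summed B markers, as a multiple of their mean over mice, exceeded its summed T markers taken the same way, and otherwise to T. The classes are ranges of a score and not cell types, and 930 of the 2505 barcodes (37.1%) had multiples within 2 times of each other. The share leaning to B was 27.1%, 20.6%, 16.5% and 65.5% in H3, H4, H6 and H7 and 72.5%, 37.1% and 45.0% in S1, S2 and S7. H7 thus stood with S1 rather than with the other healthy mice. The means were 32.4% ± 22.5 (SD, n = 4) and 51.5% ± 18.5 (SD, n = 3), and the difference of 19.1 percentage points gave p = 0.314 in a two-sided exact permutation test. In T-leaning barcodes 25 of 27 T cell identity genes and all 8 Gimap genes were lower in CIA, with medians of -0.30 and -0.46. In B-leaning barcodes 9 of 21 B cell identity genes were higher, with a median of -0.04. Some identity genes are also the markers that set the classes.

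Ifi27l2a rose in both classes. In B-leaning barcodes it was at 93.8, 155, 133 and 422 UPM in the healthy mice and 1543, 1050.1 and 1279 UPM in the CIA mice (log2 2.83, SE 0.37; limma adjusted p = 0.000103). In T-leaning barcodes it was at 154, 198, 125 and 265 UPM and 1387, 899 and 1035 UPM (log2 2.54, SE 0.32; limma adjusted p = 0.000427). Plac8 passed the test in B-leaning barcodes, where it rose from 154 ± 77.7 UPM (SD, n = 4) to 597 ± 88.9 UPM (SD, n = 3; log2 1.99, SE 0.37; limma adjusted p = 0.0245). In T-leaning barcodes its log2 difference was 1.63 (SE 0.40, adjusted p = 0.801), and whether the classes differ was not tested. The call of Plac8 was lost without H4, H6, S1, S2 or S7. In all, 2 of 5272 genes were called in B-leaning barcodes (0.0379%) and 1 of 4924 in T-leaning barcodes (0.0203%).

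The filter on low values was applied again in each class. Some members, such as Irf7 in both classes, passed it through the CIA mice, so their direction was partly fixed. Of the 30 interferon-stimulated genes tested in B-leaning barcodes, 27 were higher, with a median of 1.41, and 14 did not overlap in that direction, against 6.87% of all genes. In T-leaning barcodes 20 of 24 were higher, with a median of 1.07, and 8 did not overlap, against 3.59%. Ifit3, Isg15, Parp9, Irf7, Slfn5, Phf11b and Irf9 passed the filter there with a healthy mean under 25 UPM. Of these, Ifit3, Isg15, Irf7, Slfn5 and Phf11b were among the 8 without overlap. Counts without such members were not made in either class. Of 23 genes set side by side in both classes 18 were higher in both. Irf7 was at 0, 21.98, 0 and 57.7 UPM in the healthy mice and 65.03, 106 and 125 UPM in the CIA mice among B-leaning barcodes. Among T-leaning barcodes it was at 22.03, 14.6, 0 and 42.8 UPM and 84.1, 79.7 and 78.6 UPM. Ifi35 differed in direction between the classes, with log2 values of 1.49 (SE 0.70) and -0.21 (SE 0.45), a difference that was not tested.

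**Figure D5:**
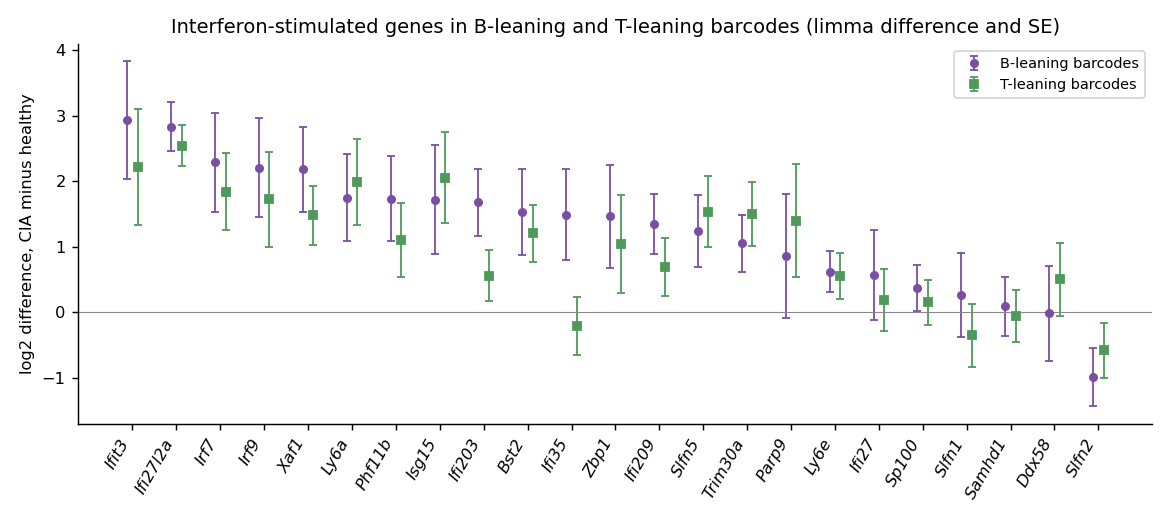
Log2 differences (CIA minus healthy) of 23 interferon-stimulated genes on the log2(UPM + 10) scale, with circles for B-leaning and squares for T-leaning barcodes and bars for the SE; genes are ordered along the horizontal axis by the B-leaning value. Of the 23 genes, 18 lie above 0 in both classes, and Ifi27l2a lies at 2.83 and 2.54.

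Quiescence genes had negative medians in both classes, -0.29 in B-leaning and -0.32 in T-leaning barcodes, and 3 of 26 and 4 of 25 lay below in every CIA mouse, against 2.28% and 2.34% of all genes. Klf2 was at 317, 389.6, 762 and 593 UPM in healthy and 54.1, 257 and 213 UPM in CIA T-leaning barcodes, without overlap (log2 -1.67, SE 0.43; limma adjusted p = 0.997). Ribosomal protein genes had a median of 0.50 in B-leaning barcodes, where 69 of 75 were higher and 31 did not overlap in that direction, against 6.87% of all genes, and of 0.04 in T-leaning barcodes; the difference between the classes was not tested. Over all genes the medians were 0.18 and 0.06. Rps19, a subunit of the small ribosomal particle, was at 7749, 5847, 8674 and 7284 UPM in healthy and 13314, 11139 and 11593 UPM in CIA B-leaning barcodes (limma adjusted p = 0.225). Among barcodes whose B multiple was at least 2 times their T multiple, 36 of 5375 genes were called (0.67%), 31 of them higher and 5 lower. Of 74 ribosomal protein genes tested there 5 were called, Rps19 (log2 0.83, limma adjusted p = 0.00349), Rps7 (log2 1.28) and Rpl41 (log2 0.88) among them. Ribosomal protein genes have many processed pseudogenes, several of which were also called, so their reads may be shared.

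Antibody genes were examined because arthritis in this model depends on antibodies to collagen. Jchain, which joins IgM and IgA into polymers and marks antibody-secreting cells, was at 31.9, 0, 0 and 0 UPM in the healthy mice. In S1, S2 and S7 it was at 74.3, 56.3 and 129 UPM (log2 2.68, SE 0.70; limma adjusted p = 0.905). Ighg1, the constant region of IgG1, was listed at 0 in all healthy mice and in S2, and stood at 55.7 UPM in S1 and 354 UPM in S7. In S7 both differed between the libraries: the 2CIA library held Jchain at 216 UPM and Ighg1 at 591 UPM, and the CIA library listed both at 0. The list as a whole showed 10 of 17 tested genes higher and a median of 0.15. Of the 17, 2 had a healthy mean under 25 UPM and 1 a CIA mean under 25 UPM. Of the other 14, 8 were higher, with a median of 0.08. With no filter 16 of 24 were higher, with a median of 0.34. Of 18 tested within the suffix 2CIA 14 were higher, with a median of 0.59, and with the suffix as a term 13 of 17, with a median of 0.46. Igkc, the kappa light chain, was at 1088 ± 357 UPM (SD, n = 4) and 1429 ± 472 UPM (SD, n = 3), Iglc2 at 899.7 ± 455 and 759 ± 247 UPM, and Mzb1 at 87.3 ± 47.97 and 119 ± 21.7 UPM. Sdc1, a plasma cell surface marker, was listed at 0 in all mice. Of 16 germinal centre genes 3 were tested, and 1 was higher.

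Cell cycle genes had a median of 0.45, with 12 of 16 tested members higher. The median was 0.33 within the suffix 2CIA, with 15 of 21 higher, and with the suffix as a term it was 0.14, with 10 of 16 higher. Dut, which keeps uracil out of DNA, was at 51.3, 16.8, 47.5 and 28.2 UPM in the healthy mice and 102, 99.5 and 91.2 UPM in the CIA mice, without overlap (log2 1.30, SE 0.38; limma adjusted p = 0.962). Top2a (118, 0, 22.5 and 23.6 UPM against 87.01, 59.7 and 133 UPM) and Pclaf (115, 42.1, 10.3 and 37.9 against 76.9, 109.7 and 119.9) had a p under 0.05 before adjustment, and H3 exceeded most CIA mice for both. Pclaf also differed by 3.37 and 4.39 on the log2 scale between the libraries of H4 and S7, and its difference within the suffix 2CIA was 0.18. Mki67, at 57.4 ± 51.1 and 68.6 ± 21.3 UPM, differed by less than its spread. The summed level of the list was 4202, 2587, 2611 and 2329 UPM in the healthy mice and 3433, 3073 and 4171 UPM in the CIA mice, and H3 was the highest of all 7. Growth and translation genes were higher for 15 of 18, with a median of 0.23, and none had a p under 0.05. Within the suffix 2CIA 12 of 19 were higher, with a median of 0.13, and with the suffix as a term 10 of 18, with a median of 0.10.

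Activation genes were higher for 10 and lower for 12, with a median of -0.08, which was 0.16 within the suffix 2CIA and -0.07 with the suffix as a term. Cd69, an early activation marker that retains lymphocytes in the node, was at 320.4 ± 71.2 and 357 ± 85.7 UPM. Nfkbia (log2 0.47, SE 0.30), Irf4 (0.80, SE 0.47), Relb (1.08, SE 0.64) and Tnfrsf4, which encodes OX40 (1.46, SE 0.82), were higher by less than 2 times their SE, and Dusp2 was lower (-0.58, SE 0.32). Of 20 immediate early and stress genes 13 were lower, with a median of -0.26, which was -0.14 within the suffix 2CIA and -0.04 with the suffix as a term. Fos was at 281, 286, 457 and 456 UPM in the healthy mice and 194, 182 and 269 UPM in the CIA mice, and Dusp1 at 245, 372, 318 and 382 and 151, 186 and 254 UPM. Gadd45b, a stress-induced regulator, went the other way, with 163, 47.3, 103 and 120.5 UPM against 207, 194 and 289 UPM and no overlap (log2 1.11, SE 0.38; limma adjusted p = 0.962).

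Of 9 regulatory and follicular helper T cell genes, Sh2d1a, the adaptor SAP that follicular helper cells require, was at 28.8, 43.2, 67.5 and 0 UPM in the healthy mice and 57.4, 103 and 100.2 UPM in the CIA mice. Izumo1r, a folate receptor of regulatory T cells, was at 15.97, 0, 31.3 and 0 UPM and 56.4, 44.2 and 33.5 UPM without overlap. The list had a median of 0.47, with 5 higher and 4 lower, and the median was -0.10 within the suffix 2CIA and -0.23 with the suffix as a term. Of the 9, 3 passed the filter through the CIA mice alone, and the other 6 had a median of -0.22. Of 7 cytotoxic genes, Ly6c2 (133, 268, 216 and 119.6 UPM against 299, 274 and 362 UPM) and Nkg7 (72.6, 61.9, 89.04 and 76.7 against 130.03, 90.3 and 125) did not overlap, against 3.91% of all genes, while Xcl1, a chemokine that attracts cross-presenting dendritic cells, was at 136, 37.6, 179 and 70.8 UPM and 0, 0 and 83.2 UPM, with S7 among the healthy values. Ccl5 was at 346 ± 116 and 264 ± 102 UPM. The median of this list was -0.02, beside 0.48 within the suffix 2CIA and -0.13 with the suffix as a term.

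The antigen presentation lists had medians of 0.17 for class II (9 of 10 higher) and 0.22 for class I (16 of 22 higher), with no member at a p under 0.05. The medians were 0.50 and 0.45 within the suffix 2CIA, and with the suffix as a term 0.44 and 0.26. B2m, the light chain of class I molecules, was at 1749, 1839, 2292 and 1699.6 UPM in the healthy mice and 2352, 2353 and 2343 UPM in the CIA mice. Psmb9, a subunit of the immunoproteasome, was at 105, 113, 137 and 83.4 UPM and 148, 168 and 190.1 UPM, again without overlap, and Canx was the third such member of 22, against 3.91% of all genes. H2-D1 (log2 -0.02, SE 0.17), Cd74 (0.01, SE 0.27) and H2-Aa (0.32, SE 0.25) differed by amounts close to their SE or below it. Oxidative phosphorylation genes had a median of 0.19, with 54 of 78 higher, and ribosomal protein genes one of 0.18, with 59 of 74 higher.

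Cytokines with known roles in arthritis were also listed. Of 9 tested cytokines and regulators 5 were lower, and Tgfb1 was the one with a p under 0.05 before adjustment. It was at 86.7, 67.8, 72.4 and 94.4 UPM in the healthy mice and 12.7, 74.7 and 28.7 UPM in the CIA mice, with S2 among the healthy values (log2 -1.09, SE 0.42; limma adjusted p = 0.962). Tnf was at 30.1, 24.2, 30.8 and 17.7 UPM and 25.7, 0 and 43.1 UPM (exact permutation p = 0.829). Il1b was listed above 0 in H7 alone, at 43.0 UPM, and Il17a, Il6, Il10 and Il21 were listed at 0 in all mice.

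The ranking by p in the higher direction also held Nampt, an enzyme of NAD synthesis (17.2, 0, 0 and 16.01 UPM against 61.3, 75.2 and 85.05 UPM), and Rpl41 (5179.7 ± 354 against 7486 ± 989.9 UPM). In the lower direction it held Snord118 (384, 248.9, 561 and 305 UPM against 138, 157 and 120.1 UPM), a small nucleolar RNA that overlaps another gene and is therefore uncertain, the scaffold protein Ahnak (142, 94.6, 178 and 138 against 48.6, 30.1 and 63.3), Emp3 (109, 126, 118 and 90.1 against 30.6, 35.4 and 61.6), Erdr1 (86.7, 148, 144 and 139 against 57.7, 48.5 and 43.8), Tecpr1 (51.7, 76.4, 74.4 and 85.1 against 0, 22.8 and 40.3) and Arl4c (102, 88.7, 113 and 61.9 against 10.8, 18.9 and 63.3). The groups did not overlap for these genes except Arl4c, and their limma adjusted p lay between 0.905 and 0.962. Hbb-y and Hba-ps4, a globin gene and a globin pseudogene, completed the lower end.

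Red cell and neutrophil transcripts varied widely between libraries. The 5 tested erythroid genes were lower in CIA, with a median of -3.73, and the summed level of their list was 101, 22349, 3974 and 147454 UPM in H3, H4, H6 and H7 and 637, 499.8 and 240.3 UPM in S1, S2 and S7. H3 was thus below all CIA mice in the summed level, and in H4 the beta-globin gene Hbb-bs was at 1538 UPM in the 2CIA library and 24040 UPM in the CIA library. Of the 5, 3 passed the filter on low values through the healthy mice alone. Of 3 erythroid genes tested within the suffix 2CIA 1 was higher and 2 lower, with a median of -0.35. S100a8, a calcium-binding protein abundant in neutrophils, was at 25.4, 612, 73.9 and 2243 UPM in the healthy mice and 1420.2, 309 and 484 UPM in the CIA mice. Its levels were 0 and 903 UPM in the 2CIA and CIA libraries of H4, and 758 and 72.0 UPM in those of S7. Within the suffix 2CIA, S100a8 and S100a9 passed the test with log2 differences of 5.23 and 4.62 (limma adjusted p = 0.00217 for S100a8), from 26.9 and 0 UPM of S100a8 in H3 and H4 to 1509, 307 and 758 UPM in S1, S2 and S7. The 4 neutrophil markers summed to 25.4, 853, 89.04 and 3291 UPM in the healthy mice and 1787, 414 and 671 UPM in the CIA mice. The part of red cells and neutrophils in the other differences was not tested beyond leaving out libraries: without the CIA library of H4 and the library of H7, Ifi27l2a, Plac8, S100a8 and S100a9 were called. The 4 NK markers summed to 92.98, 129, 212 and 66.97 UPM and 87.7, 57.7 and 131 UPM and the 4 plasma cell markers to 222, 219.9, 70.4 and 186 UPM and 336, 203 and 314 UPM. The 4 dendritic cell markers, 2 of them listed at 0 throughout, summed to 39.8, 16.02, 0 and 0 UPM and 31.9, 36.9 and 76.4 UPM. Of the other cell lists, 5 of 7 tested monocyte and macrophage genes, both tested neutrophil genes and both tested dendritic cell genes had higher values in CIA, Plac8 being the one with a p under 0.05, and the 1 tested stromal or endothelial gene, Pecam1, had a log2 difference of -0.09 (SE 0.35). No platelet, mast cell or thymocyte gene passed the filter on low values.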

How the data were processed

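Seq-Well libraries of the pilot were processed by the authors with STAR against mouse GRCm38. The submitters' notes also list GRCh38, mm9, bcl2fastq and Picard without saying how each was used. The deposited values are a signal in whole-number units, unique molecular identifiers smoothed over neighbouring cells by the authors (k = 12), so no count model was used. All 9 lymph node libraries entered. Of 23013 gene identifiers 21404 matched a symbol in the RefSeq table; the others held 6.537% of lymph node units.

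The units of all barcodes of a mouse were added and brought to a total of 1000000 units (UPM) by a trimmed mean of log ratios (30% of ratios and 5% of levels trimmed, factors 0.945 to 1.10). Genes averaging at least 25 UPM were tested with limma 3.58.1 in R 4.3.3 on log2(value + 10) with a variance trend and Benjamini-Hochberg adjustment; the others, and shares of barcodes, with two-sided exact permutation tests over mice. The mouse was the replicate. The procedure was tested on simulated data. Alternatives changed the pseudocount, filter, scaling, trend, libraries and mice; 2 that leave out libraries were added after seeing the data.

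Gene lists and members were chosen with earlier results of these data known. Named genes were those called, the 10 smallest p per direction, in each list the 2 highest levels and up to 4 smallest p per direction, the cell type markers, and Tgfb1, Il1b and Tnf. Other genes, such as Isg15, Ifit3, Mki67 and those under the filter, were chosen after their values were seen. Some items are not reported here.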

Additional observations from a re-analysis of the deposited data

Results flagged for a closer look

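In 13 of 136 groups of 4 healthy mice a single mouse lay far from the other 3 by Dixon's criterion. Chance alone meets it in about 1 in 20 independent groups of normally distributed values. These groups are genes and sums of the same 4 mice, and in some the other 3 mice were at 0. No excess over chance can therefore be read from the count. H7 stood high for Hbb-bs at 113482 UPM, with 16977 UPM in the nearest mouse, for Hbb-bt at 13003 UPM (nearest 1649) and for the summed erythroid level at 147454 UPM (nearest 22349). It also stood high for the antiviral gene Rsad2 at 155 UPM (nearest 14.5), for Ifit3 at 16.01 UPM (others listed at 0) and for Ctss, a lysosomal protease of antigen-presenting cells, at 537 UPM (nearest 284). The same mouse held the summed platelet and mast cell level of 212 UPM (nearest 11.6) and the summed thymocyte level of 28.6 UPM (others at 0). H3 stood high for Jchain at 31.9 UPM (others listed at 0), for the summed growth and translation level of 4391 UPM (nearest 3187) and for the summed cell cycle level of 4202 UPM (nearest 2611). It stood low for Erdr1 at 86.7 UPM (nearest 139). H6 stood low for the chaperone Canx at 124 UPM. Groups of 3 CIA mice were not examined.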

How the results depend on the processing

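Ifi27l2a kept its direction under every alternative run, with log2 differences between 2.35 and 3.02, and lost its call without a variance trend and without H6, S1 or S7. The number of genes called over all barcodes was 1, and 6 with no filter (Ifi27l2a, Plac8 and 4 globin genes), 0 with no variance trend (226 at p under 0.05 before adjustment), 3 with 2CIA libraries only (Ifi27l2a, S100a8, S100a9), 4 without the CIA library of H4 and the library of H7 (these 3 and Plac8), and 0 to 7 with a mouse left out, 7 being without H3, from globin genes. Interferon-stimulated genes with every CIA mouse above numbered 12 of 25 (3.91% of all genes), 24 of 52 with no filter (2.92%), 4 of 8 with a filter at 100 UPM (4.33%), 10 of 25 with total scaling (2.78%) and with median-of-ratios scaling (2.72%), 20 of 25 with 2CIA libraries only (14.4%), 4 of 10 over genes above 0 in every library (2.81%), 9 of 27 with the suffix as a term (1.43%) and 12 to 14 with a mouse left out (5.76% to 9.11%). Quiescence genes with every CIA mouse below numbered 3 (2.25% of all genes), 5 with total scaling (2.56%), 6 with median-of-ratios scaling (3.08%), 6 over genes above 0 in every library (2.78%), 0 with every library its own sample and 0 with the suffix as a term (0.522% in both) and 4 to 7 with a mouse left out (3.79% to 5.51%). T cell identity genes below numbered 5, and against the same shares 3 over genes above 0 in every library, 1 with every library its own sample, 1 with the suffix as a term and 5 to 9 with a mouse left out. They numbered 3 at a filter of 100 UPM (2.19%), 3 with each distinct profile counted once (2.13%) and 2 without the 2CIA library of H4 (2.08%). Calls in B-leaning barcodes numbered 2, 36 where a multiple was at least 2 times the other, and 1 to 21 with a mouse left out (21 without H3, 6 without S7 and 4 without H6, with Ifi27l2a in each), and in T-leaning barcodes 1 and 1 to 4 (4 without H3, with 3 globin genes). The difference in the share of B-leaning barcodes ranged from 8.66 points without S1 to 30.1 without H7. Among 2393 alternative values of 109 named genes none reversed a call, and 70 changed sign with neither value called. The cause of these changes was not tested. No paired analysis was possible because healthy and CIA lymph nodes came from different mice that share the number 7 alone. Precision is limited by 3 and 4 mice and by smoothing, which leaves the depth per gene unknown.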

Other observations

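Several gene lists are described here by their counts and medians in T-leaning and B-leaning barcodes, with no gene called. The filter on low values was applied again in each class, so members could pass it through the CIA mice alone. Of 9 interferon gamma-induced GTPases and chemokines, 7 were higher in CIA with a median log2 difference of 0.96, beside 0.61 in B-leaning barcodes and 0.06 over all genes in T-leaning barcodes. In T-leaning barcodes Gbp6, Gbp8 and Irgm1 had healthy means of 10.1, 8.95 and 16.7 UPM, so their direction was partly fixed by the filter. Oxidative phosphorylation genes were higher for 62 of 78, with a median of 0.23, and in 10 of them every CIA mouse lay above every healthy mouse, against 3.59% of all genes. Cell cycle genes were higher for 13 of 19, with a median of 0.57, beside 0.24 for 16 genes in B-leaning barcodes. In B-leaning barcodes MHC class II genes were higher for 4 of 10, with a median of -0.16, and class I genes for 17 of 21, with a median of 0.33. The differences between the classes were not tested.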
